A study of Mus musculus with 20 samples.

Results

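The genes described here were 42 genes of cardiac calcium handling, ion channels and adrenergic signalling, taken by symbol from a table of 25308 genes measured in the apex of the mouse heart. The list comprised proteins of the sarcoplasmic reticulum, calcium channels and the sodium-calcium exchanger, sodium channel subunits, potassium channels, pacemaker and TRP cation channels, connexins, sodium pump components, and adrenergic receptors with the kinase CaMKII. All 42 were in the table, and 41 passed the filter on low counts and were tested. The exception was Sln (sarcolipin, an inhibitor of the calcium pump found mainly in atrial muscle), which was listed at 0 in most mice and reached at most 0.0885 CPM (counts scaled to library size). The 20 mice formed 3 groups. The 9 AL mice were λS-DH mice with amyloid deposits in the heart. The 4 LS mice were λS-DH mice that had not been induced and had no deposits. The 7 Ctrl mice were DH-LMP2A mice. The λS-DH mice carry a full human λ light chain cDNA, from a patient with light chain (AL) amyloidosis, under a mouse VH promoter in place of the Jκ segments of the kappa locus. They were bred on the DH-LMP2A background, on which plasma cells make light chains without heavy chains, so this background was common to all 3 groups, and a CMV-Cre deleter strain had served to remove the neomycin cassette of the knock-in. In this model deposits are induced by an intravenous injection of the recombinant λS variable domain, as sonicated fibrils or in soluble form. Adult mice of both sexes were used, and neither age, sex nor the route of induction was given for single mice. The light chain comes from plasma cells and reaches the heart through the blood, so the transgene is not a cardiac one. AL1 to AL7, all LS mice and Ctrl1 to Ctrl4 belonged to the first of 2 sequencing runs, and AL8, AL9 and Ctrl5 to Ctrl7 to the second.

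In each heartbeat, calcium entering the cardiomyocyte through L-type channels opens the ryanodine receptor, which releases the calcium stored in the sarcoplasmic reticulum. The pump SERCA2a returns it to the store under the brake of phospholamban, and the exchanger and sodium pump restore the ion balance across the surface membrane. Sodium channels start the action potential, potassium channels end it, connexins pass it between cells, and adrenergic receptors set rate and force.

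The count total of a library ranged from 43993277 to 62668146 in the 15 mice of the first run and from 7867642 to 11794615 in the 5 mice of the second, so that 3 counts corresponded to at most 0.0748 CPM in the first run and 0.356 CPM in the second. Each library was 1 mouse, and p-values measured the spread between these mice. The labelled tissue was matched by its cardiomyocyte markers, with the 8 of them summing to 50232 CPM or more in every mouse. The ventricular marker Myl2 was 3496 CPM in AL9 and 5703 CPM or more in every other mouse. The atrial marker Bmp10 stayed near 0, and the other atrial markers are given below. Libraries of 5 mice stood apart by liver genes: Alb (albumin) was 113 CPM in LS1, 93.4 CPM in LS3, 138 CPM in Ctrl1, 215 CPM in Ctrl3 and 105 CPM in Ctrl4. All 5 were controls, and results without them are given beside the genes they touch. Without them the controls left were LS2, LS4, Ctrl2 and Ctrl5 to Ctrl7, with Ctrl2 the only Ctrl mouse of the first run. Whether an FDR lost in this setting goes with the smaller number of controls or with the liver genes was not tested. AL9 stood apart by its lowest share of mitochondrial counts (18.3%, against 37.1% at the highest), by Col1a1 at 694 CPM and by its low Myl2. Its sums of atrial markers (997 CPM) and of conduction system markers (38.6 CPM) were the highest of all mice. In bulk tissue, fewer cells of a type and less RNA per cell cannot be told apart.

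Promoters are shown for the genes that fell against Ctrl beyond both thresholds used below and had an entry in RefSeq, which were Scn4b, Scn4a, Kcnd2 and Kcnj12 (the other such gene, Adra1a, had none). Each sequence runs 5′ to 3′ on the gene's strand, from 250 bases before the RefSeq start in lower case to 50 bases after it in capitals (GRCm38.p6). The positions are chr9:45138374-45138673 on the plus strand for Scn4b, chr11:106349341-106349640 on the minus strand for Scn4a, chr6:21215096-21215395 on the plus strand for Kcnd2 and chr11:61065554-61065853 on the plus strand for Kcnj12.
Scn4b: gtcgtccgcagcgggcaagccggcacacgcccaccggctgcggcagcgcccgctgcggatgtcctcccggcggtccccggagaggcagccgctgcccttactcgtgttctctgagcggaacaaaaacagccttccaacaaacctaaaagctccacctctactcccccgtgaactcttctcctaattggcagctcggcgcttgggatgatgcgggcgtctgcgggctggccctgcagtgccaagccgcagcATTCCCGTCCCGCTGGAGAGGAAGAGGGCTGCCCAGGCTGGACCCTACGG
Scn4a: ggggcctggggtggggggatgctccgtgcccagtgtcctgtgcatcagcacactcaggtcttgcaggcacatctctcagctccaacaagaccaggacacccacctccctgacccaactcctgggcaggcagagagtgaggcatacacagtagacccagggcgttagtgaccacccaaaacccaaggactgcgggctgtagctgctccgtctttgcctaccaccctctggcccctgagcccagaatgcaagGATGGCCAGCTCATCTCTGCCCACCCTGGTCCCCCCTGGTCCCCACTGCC
Kcnd2: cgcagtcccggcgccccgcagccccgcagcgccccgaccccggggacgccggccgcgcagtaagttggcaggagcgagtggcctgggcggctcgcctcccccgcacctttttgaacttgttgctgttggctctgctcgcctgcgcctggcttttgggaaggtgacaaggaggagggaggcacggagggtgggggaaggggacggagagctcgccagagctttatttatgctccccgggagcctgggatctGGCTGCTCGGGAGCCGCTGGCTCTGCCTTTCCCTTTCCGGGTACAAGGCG
Kcnj12: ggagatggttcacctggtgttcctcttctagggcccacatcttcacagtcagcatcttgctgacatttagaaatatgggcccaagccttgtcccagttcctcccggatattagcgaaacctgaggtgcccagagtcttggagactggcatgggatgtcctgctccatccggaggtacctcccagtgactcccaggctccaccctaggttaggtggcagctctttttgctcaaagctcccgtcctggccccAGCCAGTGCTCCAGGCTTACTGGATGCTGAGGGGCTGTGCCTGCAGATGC
The capitals of Scn4b and Kcnj12 lay whole within a GENCODE M21 transcript of the gene, and those of Scn4a and Kcnd2 did not. Such a match does not show that a transcript starts there. The Kcnj12 window lay inside the GENCODE gene, which begins at 61022564, and so did the Scn4a window (gene to 106353288, minus strand). Neither need be the promoter at the gene's start. The GENCODE gene of Scn4b begins at 45138395, within its window, and that of Kcnd2 at 21215503, past the end of its window. These windows were rich in G and C, at 66.3% for Scn4b, 63.0% for Scn4a, 68.7% for Kcnd2 and 57.0% for Kcnj12. Among them only Kcnd2 held a GC box (GGGCGG on either strand), 166 to 161 bases before the start, and none held TATAAA or the MEF2-type CTANNNNTAG. Of the 29 listed genes with an entry, 19 held a GC box in at least 1 promoter (65.5%), against 38.2% of 27025 genes with an entry. TATAAA was found for 2 of 29 (6.90%, Pln and Fxyd1) against 15.7% of all genes, and the MEF2-type motif for 0 of 29 against 4.23%. These are matches of letters and not tests of binding.

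The levels of the listed genes, per length of exon, spanned more than 3 orders of magnitude. In Ctrl mice the highest mean was that of Pln (phospholamban) at 2180.2 ± 478 CPM per kb (SD, n = 7), next to Atp2a2 (SERCA2a) at 2005 ± 79.3 CPM per kb. Before division by length, Pln was 6128 to 7608 CPM in Ctrl mice of the first run and 4268 to 5052 CPM in those of the second. The means over both runs therefore do not settle which of the 2 genes was higher. Hrc, a calcium-binding protein of the store, followed at 468 ± 39.1 CPM per kb, and Casq2 (calsequestrin, the main calcium buffer of the store) at 346 ± 63.4 CPM per kb. The ryanodine receptor Ryr2 stood at 65.0 ± 7.57 CPM per kb. Among receptors, Adra1b (4.88 ± 1.65 CPM per kb) and Adra1a (3.86 ± 0.740 CPM per kb), the α1-adrenergic receptors, lay above the β1 receptor Adrb1 (1.65 ± 0.284 CPM per kb) in Ctrl mice. In AL mice the Adra1a level was 1.76 ± 0.570 CPM per kb (n = 9), next to Adrb1 at 1.67 ± 0.270 CPM per kb.

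**Figure D1:**
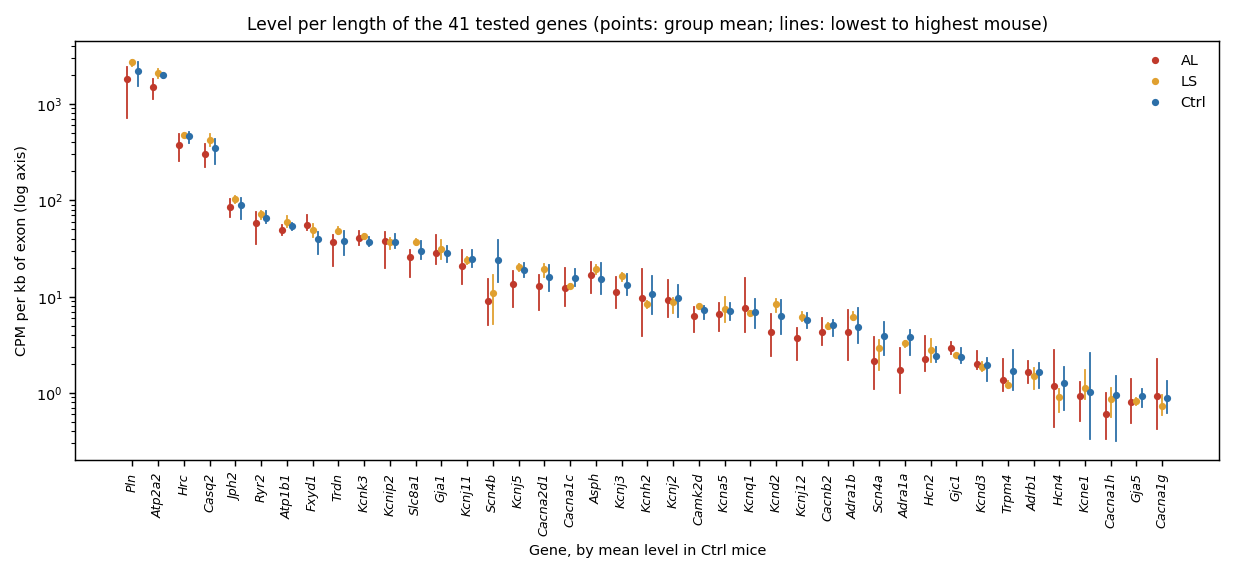
Level of each of the 41 tested genes in CPM per kb of exon on a log axis, ordered by the mean of the Ctrl mice; points are group means and lines run from the lowest to the highest mouse of the AL (n = 9), LS (n = 4) and Ctrl (n = 7) groups. Pln and Atp2a2 lead, and the AL points of Scn4b, Adra1a, Kcnd2 and Kcnj12 lie below those of Ctrl.

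The first comparison asked which of these genes differed between hearts with amyloid and hearts without it. Against Ctrl, 11 of 41 genes fell and 2 rose at a false discovery rate (FDR) under 0.05 in edgeR's quasi-likelihood test over all 14477 genes, with the sequencing run as a term of the model. The genes that fell made up 26.8%, against 15.4% of all genes tested, and those that rose 4.88%, against 10.7%. With an absolute log2 fold change (log2FC) of at least 0.58 in addition, 5 genes were lower (12.2%, against 3.71% of all genes) and 0 were higher (against 4.1%). Against LS, 13 of 41 fell (31.7%, against 13.6%) and 0 rose (against 9.78%). With the log2FC threshold, 4 were lower than in LS (9.76%, against 3.03%) and 0 were higher (against 5.86%). The median log2FC of the 41 genes was -0.18 against Ctrl and -0.26 against LS, while that of all genes was 0.013 and 0.011. The log2FC was below 0 for 30 genes against Ctrl and for 33 against LS, compared with 48.4% and 48.6% of all genes. Both comparisons rest on the same AL mice and are not independent. The listed genes were chosen with earlier results of these data known, so their shares beside all genes are descriptions and not a test. On counts adjusted for the run with ComBat-seq, 5 genes passed the FDR against Ctrl (Adra1a, Kcnd2, Kcnj12, Scn4a and Scn4b) and 3 against LS (Adra1a, Kcnd2 and Kcnj12). Without the 5 mice of highest Alb, 5 passed against Ctrl (Adra1a, Cacna2d1, Fxyd1, Kcnd2 and Scn4b) and 4 against LS (Adra1a, Atp2a2, Cacna2d1 and Kcnd2).

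**Figure D2:**
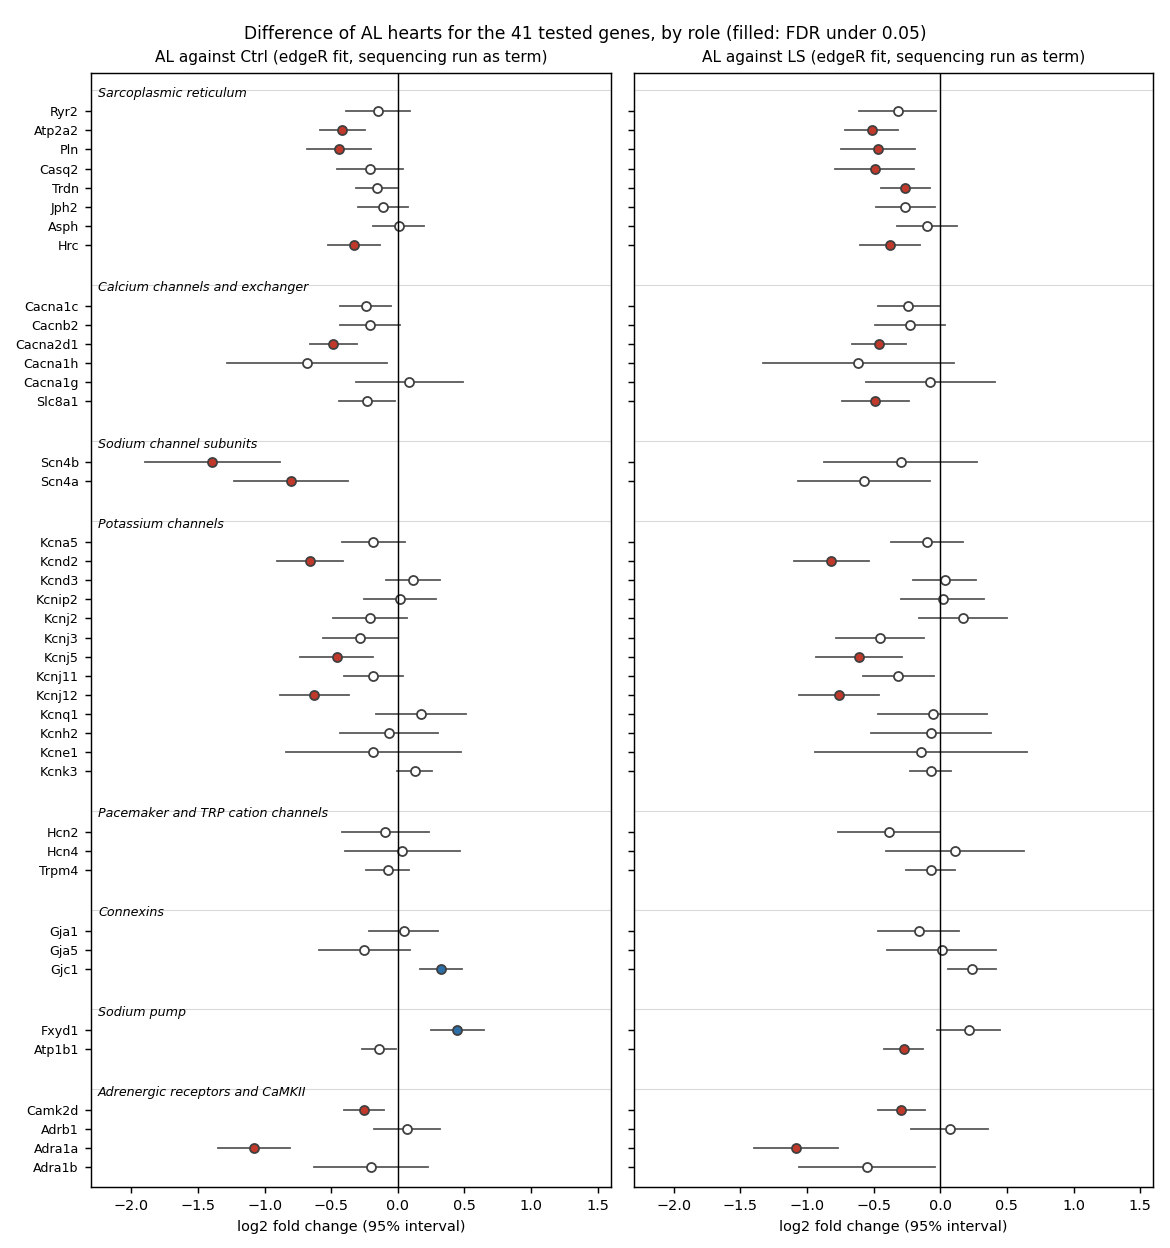
log2FC with its 95% interval for the 41 tested genes, grouped by role, for AL against Ctrl (left) and AL against LS (right); filled points passed an FDR of 0.05, red for lower and blue for higher in AL mice. Of the filled points, 11 on the left and 13 on the right lie below 0, and 2 on the left lie above it.

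In the adrenergic group, Adra1a, the α1A-adrenergic receptor that couples to calcium release through phospholipase C, was the gene with the smallest FDR on the list. Adra1a (ENSMUSG00000045875, chromosome 14, 66635251 to 66771168, plus strand, GRCm38) was 8.69 CPM at the lowest, 14.7 at the median and 25.8 at the highest of the 9 AL mice. It was 30.5, 26.2, 29.7 and 30.5 CPM in the LS mice, and 21.7, 36.7 and 39.6 CPM at the lowest, median and highest of the 7 Ctrl mice. Within each run every AL mouse lay below every control, and across runs only AL8, of the second run, exceeded the lowest Ctrl mouse, Ctrl3. The log2FC was -1.08 against Ctrl (SE 0.14, FDR 0.000101), or 47.2% of the Ctrl level, and -1.08 against LS (SE 0.16, FDR 0.000465). Its value without the 5 mice of highest Alb was -1.05 against Ctrl (FDR 0.0086) and -1.03 against LS (FDR 0.0206). Camk2d, the calcium-calmodulin kinase that phosphorylates the ryanodine receptor and phospholamban, fell by 0.25 on the log2 scale against Ctrl (FDR 0.0229) and by 0.29 against LS (FDR 0.0257). Without AL9 the Camk2d value against Ctrl was -0.18 (FDR 0.0776), against LS its FDR was 0.0613, 0.0764 and 0.0617 without LS1, LS2 and LS3 in turn, and without the 5 mice of highest Alb its FDR was 0.223 against Ctrl and 0.248 against LS. Adra1b, the other α1 receptor measured, was 7.47 to 24.4 CPM in AL mice and 11.3 to 25.98 CPM in Ctrl mice, with a log2FC of -0.20 (95% interval -0.63 to 0.22, FDR 0.522). In LS mice Adra1b was 19.3, 19.4, 21.8 and 23.2 CPM, above the 7 AL mice of the first run (7.47 to 17.3 CPM) but not above AL9 (24.4 CPM), and the log2FC of AL against LS was -0.55 (95% interval -1.06 to -0.04), which did not pass after adjustment (FDR 0.132). Adrb1, the main receptor for noradrenaline on the cardiomyocyte, was 4.33 to 7.23 CPM in AL, 3.71 to 6.21 CPM in LS and 3.82 to 6.87 CPM in Ctrl mice. The interval of its difference from Ctrl ran from -0.18 to 0.32 on the log2 scale (FDR 0.724).

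**Figure D3:**
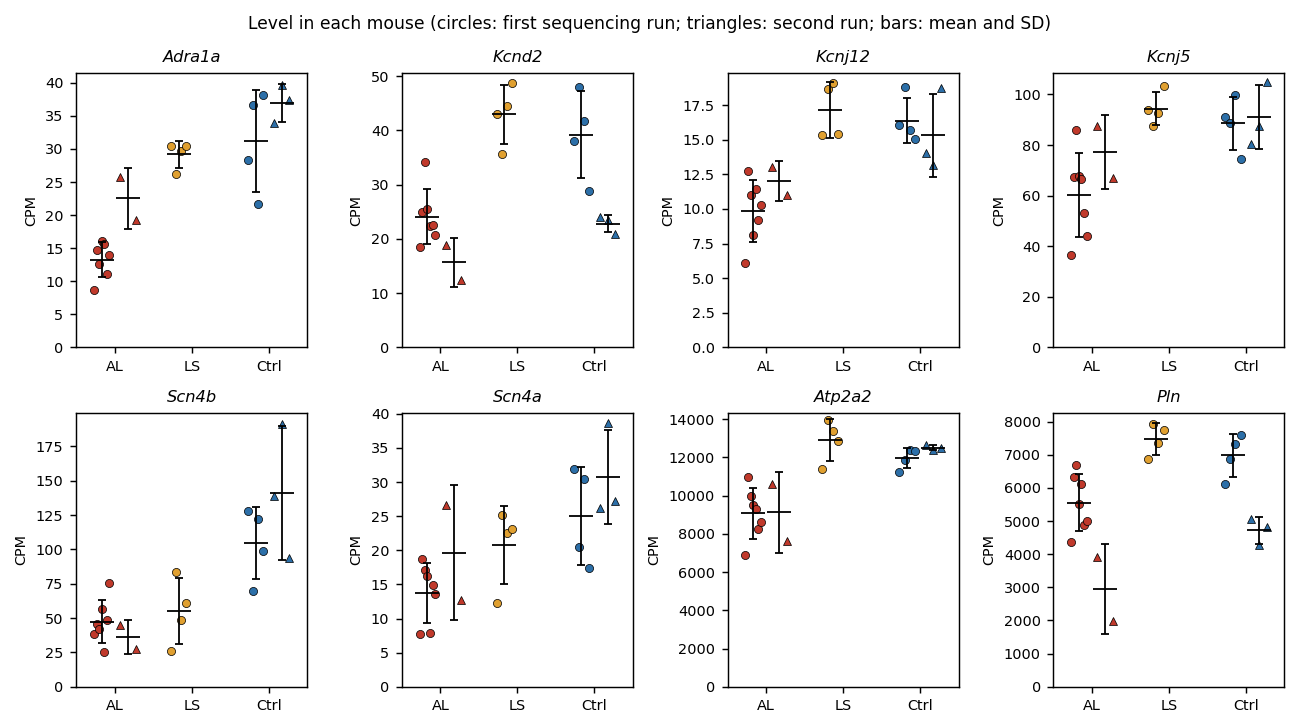
CPM of 8 genes in each mouse by group, from 0; circles are mice of the first sequencing run, triangles those of the second, and bars give the mean and SD of each group in each run. The AL circles of Adra1a, Kcnj12 and Atp2a2 all lie below the LS and Ctrl circles. For Scn4b, LS1, LS3 and LS4 lie within the AL range and LS2 within the Ctrl range.

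Both sodium channel subunits fell against Ctrl. Scn4b encodes a β subunit that modulates the gating of the cardiac sodium channel (ENSMUSG00000046480, chromosome 9, 45138395 to 45154152, plus strand). It was 25.1, 44.7 and 75.3 CPM at the lowest, median and highest AL mouse and 70.0, 122 and 191 CPM in Ctrl mice, so that the groups overlapped by AL7 and Ctrl2. Its log2FC against Ctrl was -1.39 (SE 0.26, FDR 0.00103), the most negative of the list. The LS mice had 26.2, 83.6, 48.7 and 60.9 CPM. LS1, LS3 and LS4 lay within the AL range and below every Ctrl mouse, and LS2 lay within the Ctrl range. Scn4b in AL mice did not pass against LS (log2FC -0.30, 95% interval -0.87 to 0.28, FDR 0.492), and LS mice did not pass against Ctrl either, at -1.10 (95% interval -1.77 to -0.43, unadjusted p = 0.00456, FDR 0.737). Scn4a, the sodium channel pore best known from skeletal muscle (ENSMUSG00000001027, chromosome 11, 106318592 to 106353288, minus strand), was 7.71, 14.9 and 26.7 CPM at the lowest, median and highest AL mouse. Ctrl mice had 17.4, 27.3 and 38.6 CPM, and LS mice 12.3, 25.1, 22.5 and 23.1 CPM, so that the groups overlapped. The log2FC was -0.80 against Ctrl (SE 0.22, FDR 0.0117) and -0.57 against LS (FDR 0.109). Scn4a did not pass against Ctrl without the 5 mice of highest Alb (-0.60, FDR 0.189). The summed level of the 11 skeletal muscle markers was 19.4 to 32.6 CPM in AL and 18.9 to 36.0 CPM in Ctrl mice, and the fast myosins Myh1, Myh2 and Myh4 were at or near 0. Among these markers Tnnt3, Tnni2 and Casq1 rose and Cacna1s fell against Ctrl, and their part in the Scn4a result was not tested.

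Of 13 potassium channel genes, 3 fell against Ctrl, the same 3 fell against LS, and 0 rose in either comparison. Kcnd2 encodes Kv4.2, the main pore of the fast transient outward current in the mouse ventricle (ENSMUSG00000060882, chromosome 6, 21215503 to 21729805, plus strand). Its levels differed between runs in the controls, with 28.9 to 48.1 CPM in the 4 Ctrl mice of the first run and 20.98 to 24.1 CPM in the 3 of the second. The 7 AL mice of the first run had 18.5 to 34.2 CPM, AL8 had 18.8 CPM and AL9 12.5 CPM, while LS mice had 43.1, 35.7, 44.6 and 48.7 CPM. In the first run only AL3 (34.2 CPM) exceeded a control, Ctrl4. The log2FC of Kcnd2 was -0.66 against Ctrl (SE 0.13, FDR 0.0013), or 63.4% of the Ctrl level, and -0.82 against LS (SE 0.14, FDR 0.00104). Without the run as a term it was -0.53 against Ctrl (FDR 0.0546). Kcnj12, which encodes the inward rectifier Kir2.2 (ENSMUSG00000042529, chromosome 11, 61022564 to 61071131, plus strand), was 6.09, 10.99 and 13.04 CPM at the lowest, median and highest AL mouse. The LS mice had 15.4, 18.7, 19.1 and 15.4 CPM, and Ctrl mice 13.1, 15.7 and 18.8 CPM at the lowest, median and highest. All 9 AL mice were below all LS and Ctrl mice. The log2FC of Kcnj12 was -0.63 against Ctrl (SE 0.13, FDR 0.00233) and -0.76 against LS (SE 0.15, FDR 0.00204). Without the 5 mice of highest Alb it was -0.61 (FDR 0.0731) and -0.74 (FDR 0.0646). Without Ctrl2, Kcnd2 (-0.57) and Kcnj12 (-0.56) passed the FDR against Ctrl but not the log2FC threshold, and 3 of the 5 genes remained (Adra1a, Scn4a and Scn4b). Without AL1 the Kcnj12 value against Ctrl was -0.56, short of the log2FC threshold as well. Kcnj5, a subunit of the acetylcholine-activated channel, was 36.7, 66.9 and 87.5 CPM at the lowest, median and highest AL mouse, against 93.8, 87.4, 92.8 and 103 CPM in LS mice and 74.6, 88.9 and 105 CPM in Ctrl mice. It fell by 0.46 on the log2 scale against Ctrl (SE 0.14, FDR 0.0222) and by 0.61 against LS (SE 0.17, FDR 0.0128). Without Ctrl3 the Kcnj5 value was -0.41 against Ctrl (FDR 0.0582), and without the 5 mice of highest Alb it was -0.36 (FDR 0.285) and -0.63 (FDR 0.117). Against LS, Kcnj5 fell short of the log2FC threshold without AL1 (-0.53), AL7 (-0.56) or LS4 (-0.57). Its partner in that channel, Kcnj3, had a log2FC of -0.28 against Ctrl (FDR 0.16) and -0.45 against LS (FDR 0.0589).

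The other 9 potassium channel genes had log2FC values from -0.21 to 0.18 against Ctrl, and none passed the FDR. Kcnd3 and Kcnip2 encode the other transient outward pore and the subunit that both pores share. Kcnd3 was 17.003 to 25.96 CPM in AL and 12.8 to 22.4 CPM in Ctrl mice (log2FC 0.12, 95% interval -0.09 to 0.32), and Kcnip2 was 69.0 to 162 CPM and 110.65 to 157 CPM (0.01, -0.26 to 0.28). Kcnj2, which encodes the inward rectifier Kir2.1, had a log2FC of -0.21 against Ctrl (95% interval -0.49 to 0.07) and 0.17 against LS (-0.16 to 0.50). Kcna5, the pore of a rapid sustained current, was at -0.18 (FDR 0.270) and Kcnj11, the pore of the ATP-sensitive channel, at -0.18 (FDR 0.244). Kcnq1, Kcnh2 and Kcne1, which form the slow and rapid delayed rectifiers, were at 0.18, -0.07 and -0.18, and the background channel Kcnk3 at 0.13 (FDR 0.168). Kcne1 was low, from 1.08 to 8.46 CPM in all groups, and its interval against Ctrl was the widest of the list, from -0.84 to 0.48.

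Of 8 tested genes of the sarcoplasmic reticulum, 3 fell against Ctrl and 5 against LS, and 0 rose. Atp2a2 was 6871, 9279 and 10972 CPM at the lowest, median and highest AL mouse, while the LS mice had 11398, 13963, 13380.3 and 12839.6 CPM. Ctrl mice ranged from 11238 to 12655 CPM with a median of 12382 CPM, so that every AL mouse was below every LS and Ctrl mouse. The log2FC of Atp2a2 was -0.42 against Ctrl (SE 0.087, FDR 0.00234), or 74.9% of the Ctrl level, and -0.51 against LS (SE 0.10, FDR 0.00193). Without the 5 mice of highest Alb these were -0.41 (FDR 0.0745) and -0.55 (FDR 0.0439). Pln, the inhibitor of that pump, was 4360.4 to 6679 CPM in the 7 AL mice of the first run and 6128 to 7936 CPM in the 8 controls of that run. In the second run AL8 had 3921 CPM, AL9 1994 CPM and the 3 Ctrl mice 4268 to 5052 CPM. The log2FC of Pln was -0.44 against Ctrl (SE 0.12, FDR 0.0135) and -0.47 against LS (SE 0.14, FDR 0.0233). Without the run as a term the Pln value against Ctrl was -0.27 (FDR 0.337). The FDR of Pln was 0.102 and 0.130 without the 5 mice of highest Alb, and against LS it was 0.0711 without LS2, 0.0503 without LS3 and 0.0635 without LS4. As CPM, the ratio of Pln to Atp2a2 was 0.613 ± 0.0395 in AL mice (SD, n = 7) and 0.582 ± 0.0263 in controls (SD, n = 8) of the first run. In the second run the ratio was 0.369 in AL8 and 0.261 in AL9, against 0.377 ± 0.0286 in Ctrl mice (SD, n = 3).

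Hrc fell by 0.33 on the log2 scale against Ctrl (SE 0.098, FDR 0.0193) and by 0.38 against LS (FDR 0.0231), with 659 to 1251 CPM in AL mice and 1018 to 1323 CPM in Ctrl mice. Its FDR was 0.053 against Ctrl without Ctrl3, 0.069 and 0.0631 against LS without LS2 and without LS3, and 0.351 and 0.163 without the 5 mice of highest Alb. Casq2 fell against LS (log2FC -0.49, FDR 0.0255) and did not pass against Ctrl (-0.21, FDR 0.234). The Casq2 values of the 7 AL mice of the first run, 606 to 964 CPM, were all below the 993 to 1351 CPM of the controls of that run, whereas in the second run AL8 (1054 CPM) was above all 3 Ctrl mice (648 to 899.8 CPM). Without LS3 or LS4 the Casq2 value against LS was -0.48 (FDR 0.0635) and -0.42 (FDR 0.0935), and without the 5 mice of highest Alb it was -0.59 (FDR 0.0869). Trdn (triadin, which holds calsequestrin to the ryanodine receptor) passed narrowly against LS (-0.26, FDR 0.0478) and lost that call when any of 13 mice was left out (AL1, AL3 to AL6, any LS mouse, Ctrl1, Ctrl2, Ctrl4 or Ctrl5), with an FDR of up to 0.167 without LS4. Without the 5 mice of highest Alb the Trdn value against LS was -0.30 (FDR 0.183). The remaining genes did not pass in either comparison. Ryr2 was 1007, 1775 and 2162 CPM at the lowest, median and highest AL mouse, against 1660.4, 1774 and 2239 CPM in Ctrl mice, with a log2FC of -0.15 (95% interval -0.39 to 0.09). Against LS, at 1855 to 2219 CPM, the Ryr2 value was -0.32 (FDR 0.124). Jph2, which ties the store to the surface membrane, was at -0.11 against Ctrl and -0.26 against LS, and Asph, whose locus also encodes junctin, at 0.01 and -0.10.

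Among the calcium channels and the exchanger, Cacna2d1, the α2δ1 subunit that brings L-type channels to the surface, fell in both comparisons. It was 89.9, 168 and 209.6 CPM at the lowest, median and highest AL mouse, 198, 239, 243 and 273 CPM in LS mice and 143, 210.1 and 262 CPM in Ctrl mice. The groups overlapped across runs, and in the second run AL8 (106 CPM) and AL9 (89.9 CPM) were below all 3 Ctrl mice. The log2FC of Cacna2d1 was -0.48 against Ctrl (SE 0.090, FDR 0.00105) and -0.46 against LS (SE 0.10, FDR 0.00444), and it passed without the 5 mice of highest Alb too (FDR 0.0414 and 0.0355). Without the run as a term the Cacna2d1 value against Ctrl was -0.33 (FDR 0.187). The pore Cacna1c was 170.3 to 417 CPM in AL mice and 275 to 411 CPM in Ctrl mice (log2FC -0.24, FDR 0.0733), and its β subunit Cacnb2 was at -0.21 (FDR 0.185). Slc8a1, the sodium-calcium exchanger, fell against LS (-0.49, SE 0.13, FDR 0.011), with 302 to 578 CPM in AL mice and 652, 749, 729 and 671 CPM in LS mice. Against Ctrl, at 459 to 705 CPM, the Slc8a1 value was -0.23 (FDR 0.121), and without the 5 mice of highest Alb it was -0.02 against Ctrl and -0.53 against LS (FDR 0.0773). The T-type pores Cacna1h and Cacna1g were low, with medians of 5.44 and 7.46 CPM in AL mice, and their log2FC values of -0.68 and 0.09 against Ctrl had intervals from -1.28 to -0.08 and from -0.31 to 0.49. Neither passed the FDR.

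The 2 genes that rose against Ctrl were a connexin and a regulator of the sodium pump. Gjc1, which encodes connexin 45, was 12.6, 14.9 and 16.9 CPM at the lowest, median and highest AL mouse, 12.5, 12.4, 12.8 and 12.3 CPM in LS mice and 10.2, 11.8 and 14.8 CPM in Ctrl mice. The groups overlapped, and the log2FC was 0.32 against Ctrl (SE 0.080, FDR 0.00663) and 0.24 against LS (FDR 0.0704). Fxyd1 (phospholemman) was 107, 115 and 152 CPM at the lowest, median and highest AL mouse, 90.8, 124, 122 and 94.5 CPM in LS mice and 61.1, 90.8 and 103 CPM in Ctrl mice. Every AL mouse was above every Ctrl mouse for Fxyd1, while LS mice lay across both ranges. Its log2FC was 0.45 against Ctrl (SE 0.10, FDR 0.00387) and 0.21 against LS (FDR 0.208). Without the 5 mice of highest Alb the values against Ctrl were 0.33 for Gjc1 (FDR 0.115) and 0.63 for Fxyd1 (FDR 0.0236). The pump's β1 subunit Atp1b1 fell against LS by 0.27 on the log2 scale (FDR 0.014, but 0.0817 without LS2 and 0.071 without the 5 mice of highest Alb) and was at -0.14 against Ctrl (FDR 0.107). Gja1, which encodes connexin 43, the main ventricular connexin, was 223 to 447 CPM in AL and 233 to 341 CPM in Ctrl mice (log2FC 0.04, 95% interval -0.22 to 0.30), and the connexin 40 gene Gja5 was at -0.25 (FDR 0.304). The pacemaker channels Hcn2 and Hcn4 and the calcium-activated cation channel Trpm4 had log2FC values of -0.09, 0.03 and -0.08 against Ctrl and -0.38, 0.11 and -0.07 against LS, and none passed.

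The AL mice differed among themselves. On log2(CPM + 0.5) values set against the mean of the Ctrl mice of the same run, the median over the 41 genes was -0.64 in AL1 and from -0.29 to -0.04 in AL2 to AL7. AL1 held the lowest value of the 7 AL mice of its run for 25 of the 41 genes, among them Atp2a2, Ryr2, Slc8a1, Kcnj5, Kcnj12 and Adra1a. In the second run the median was 0.036 in AL8 and -0.11 in AL9. The medians of single LS mice ran from -0.02 to 0.12 and those of single Ctrl mice from -0.09 to 0.099.

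**Figure D4:**
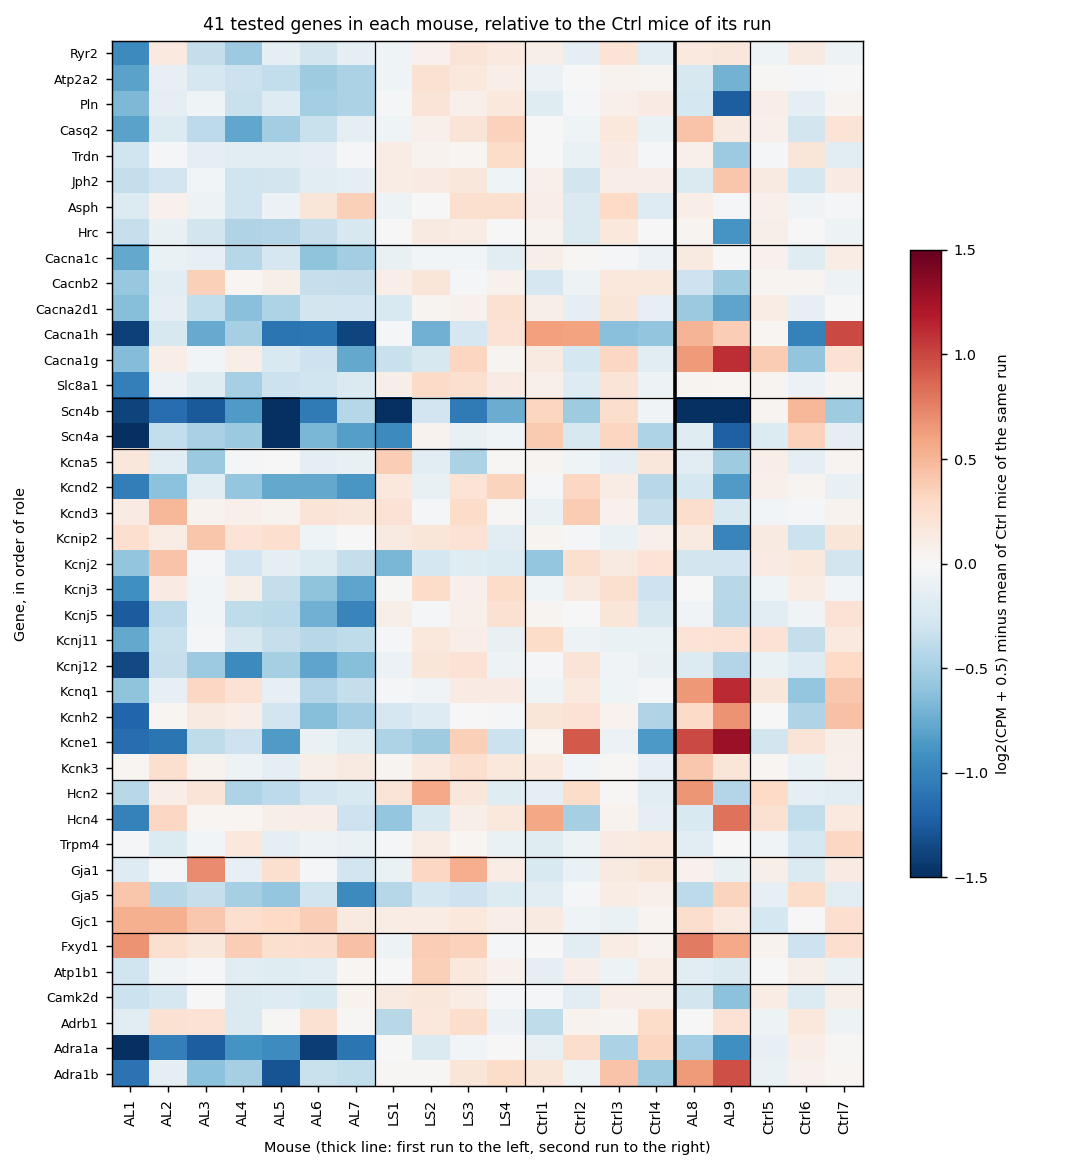
Each of the 41 tested genes (rows, by role) in each mouse (columns) as log2(CPM + 0.5) minus the mean of the Ctrl mice of the same run, with blue for lower and red for higher values and colours ending at 1.5 in each direction; the thick line separates the runs. The rows of Adra1a and Scn4b are blue in all 9 AL mice, and the columns of AL1 and AL6 are each blue for 34 of 41 genes.

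The second comparison asked whether the human light chain without deposits went with a difference. Between LS and Ctrl mice, 0 of 41 genes passed, while 0.0207% of all genes (3 of 14477) were called with the log2FC threshold, in either direction. DESeq2 also gave 0 of 41. At an unadjusted p under 0.05 there were 2 listed genes, Scn4b and Kcnk3, and 860 genes in all. The Kcnk3 value was 0.20 (95% interval 0.03 to 0.36, FDR 0.817). The log2FC of Adra1a was 0.00 with an interval from -0.35 to 0.35, that of Atp2a2 0.10 (-0.12 to 0.32), that of Kcnd2 0.16 (-0.16 to 0.48) and that of Kcnj12 0.13 (-0.20 to 0.46). The median over the 41 genes was 0.086, and 13 of them were below 0, against 49.9% of all genes.

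With LS and Ctrl merged into 1 group of 11 controls, 17 genes fell (41.5%, against 19.8% of all genes) and 2 rose (4.88%, against 16.5%). At an absolute log2FC of at least 1, Adra1a (-1.08, SE 0.12, FDR 9.85e-06) and Scn4b (-1.01, SE 0.28, FDR 0.00772) were lower (4.88%, against 2.15%), and 0 were higher (against 2.74%). Scn4b lay so near the threshold that it was lost when any of 9 mice was left out (AL1, AL5, AL8, AL9, Ctrl1, Ctrl3, Ctrl4, Ctrl5 or Ctrl6), and Adra1a then stood alone. The Scn4b value closest to 0 among these was -0.86, without AL9. Beside the genes that passed against Ctrl or LS alone, the merged comparison added Cacna1c (-0.24, FDR 0.0312) and Kcnj3 (-0.35, FDR 0.0378). The Cacna1c call was lost when any of 5 mice was left out (AL1, AL4, AL6, AL7 or Ctrl1), with an FDR of up to 0.0645. The Kcnj3 call was lost when any of 11 mice was left out (AL1, AL5, AL6, AL7, AL9, LS2, LS3, LS4, Ctrl2, Ctrl3 or Ctrl6), with an FDR of up to 0.075. Without the 5 mice of highest Alb, neither Cacna1c (-0.16, FDR 0.328) nor Kcnj3 (-0.39, FDR 0.102) passed.

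The runs were compared because AL and Ctrl mice were sequenced in both. In the first run, 4 of 41 genes were lower in all 7 AL mice than in all 8 controls (Adra1a, Atp2a2, Casq2 and Kcnj12), or 9.76% against 6.41% of all genes, and 0 were higher in all of them, against 3.01%. The AL against Ctrl difference itself did not differ between runs for any of the 41 genes at an FDR under 0.05, while it did for 0.701% of 13835 genes. At an unadjusted p under 0.05 there were 6 listed genes (Casq2, Cacna1g, Kcnj11, Kcnq1, Kcne1 and Adra1b) and 2116 genes in all, and DESeq2 called Adra1b and Kcne1. Adra1a was at -1.23 in the first run (SE 0.17, FDR 0.00108) and -0.72 in the second (SE 0.27, FDR 0.0958). Scn4b was at -1.13 (FDR 0.0119) and -1.97 (FDR 0.0161), and Cacna2d1 at -0.39 (FDR 0.0234) and -0.67 (FDR 0.0219). Kcnd2 was at -0.69 (FDR 0.0126) and -0.55 (FDR 0.176), Kcnj12 at -0.73 (FDR 0.0114) and -0.35 (FDR 0.387), and Atp2a2 at -0.39 (FDR 0.0394) and -0.45 (FDR 0.107). Errors were wider in the second run, which held 2 AL and 3 Ctrl mice. The most unlike values were those of Kcne1, at -0.75 (SE 0.32) and 1.39 (SE 0.53), with FDR 0.113 for their difference, and of Adra1b, at -0.63 (SE 0.21) and 0.84 (SE 0.33), with FDR 0.0865. Without AL8, 6 genes differed between the runs (Adra1b, Hrc, Jph2, Kcne1, Kcnip2 and Pln), where AL9 alone stood for amyloid in the second run and was assumed to vary like the other mice.

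**Figure D5:**
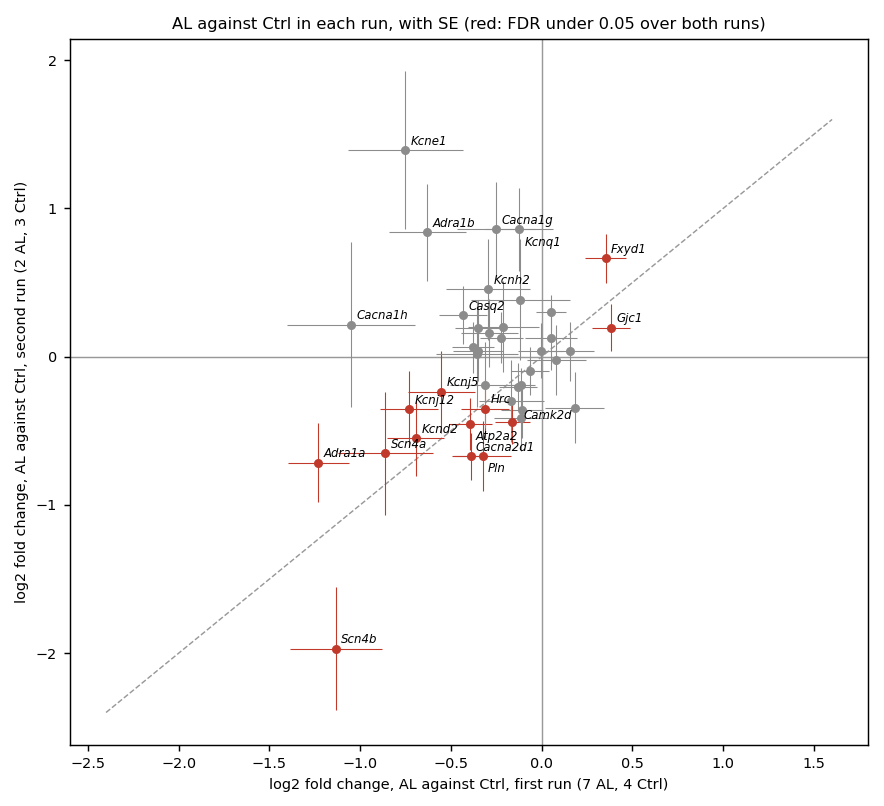
log2FC of AL against Ctrl in the first run (horizontal, 7 AL and 4 Ctrl mice) against that in the second run (vertical, 2 AL and 3 Ctrl mice) with the SE of each; red genes passed the FDR over both runs, and the dashed line marks equal values. Adra1a and Scn4b lie low in both runs, and Kcne1 and Adra1b, at -0.75 and -0.63 in the first run, lie at 1.39 and 0.84 in the second.

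Other genes of the same pathways were counted in each direction, to be read against all genes tested, of which 10.7% rose and 15.4% fell against Ctrl and 9.78% rose and 13.6% fell against LS. Of 45 further calcium-handling genes tested, 5 rose and 6 fell against Ctrl, and 4 rose and 6 fell against LS. These shares (11.1% and 13.3% against Ctrl, 8.89% and 13.3% against LS) were near those of all genes. Rrad, a small GTPase that inhibits L-type channels, rose from 36.6 ± 10.3 CPM in Ctrl mice to 79.8 ± 29.1 CPM in AL mice (log2FC 1.24, FDR 0.0004) and was 26.6 ± 11.5 CPM in LS mice. Cacnb3, a calcium channel β subunit, rose (1.00, FDR 0.000376), and Cacna2d2, an α2δ subunit at 1.04 ± 0.432 CPM in AL mice, fell (-0.78, FDR 0.0117). Of 12 further sodium channel genes, 2 rose and 2 fell against Ctrl, and 3 rose and 1 fell against LS, or 16.7% and 16.7% against Ctrl and 25% and 8.33% against LS. Gpd1l, which affects sodium current, fell against Ctrl (-0.60, FDR 0.0004). Of 33 further potassium channel genes, 3 rose and 4 fell against Ctrl, and 1 rose and 5 fell against LS, or 9.09% and 12.1% against Ctrl and 3.03% and 15.2% against LS. Abcc9, the sulphonylurea receptor of the ATP-sensitive channel, fell from 495 ± 45.9 CPM in Ctrl mice to 283 ± 71.3 CPM in AL mice (-0.84, FDR 0.000338). The low genes Kcnn2 (-0.76, FDR 0.018) and Kcnj14 (-0.72, FDR 0.0226) also fell against Ctrl. Against LS, Kcnn2 passed (-0.79, FDR 0.0361) and Kcnj14 did not (-0.15, FDR 0.699).

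Of 16 further pacemaker, TRP and chloride channel genes, 1 rose and 3 fell against Ctrl, and 0 rose and 1 fell against LS, so that 18.8% fell against Ctrl and 6.25% against LS. The membrane protein gene Ano5 was 4.98 ± 4.29 CPM in Ctrl, 0.549 ± 0.371 CPM in AL and 0.409 ± 0.405 CPM in LS mice. Its log2FC was -2.63 against Ctrl (FDR 0.00126) and -0.17 against LS (FDR 0.874). Ano10 fell against Ctrl (-0.44, FDR 0.00391) and Trpv2 rose (0.41, FDR 0.0458). Against LS neither Ano10 (-0.19, FDR 0.238) nor Trpv2 (0.40, FDR 0.096) passed. Of 11 further junction genes, 1 rose and 6 fell (54.5%) in each comparison. The desmosome genes Dsp (-0.51, FDR 0.000559) and Dsg2 (-0.51, FDR 0.00423) fell against Ctrl, and the connexin 37 gene Gja4, best known from arterial endothelium, rose (0.52, FDR 0.00994). Of 8 further sodium pump genes, 4 rose (50%) and 1 fell in each comparison. The FXYD regulators Fxyd5 and Fxyd6 rose against Ctrl by 0.78 (FDR 0.00502) and 0.37 (FDR 0.0236). Of 49 further genes of adrenergic signalling, 7 rose and 12 fell against Ctrl, and 4 rose and 15 fell against LS, or 14.3% and 24.5% against Ctrl and 8.16% and 30.6% against LS. The adenylyl cyclase Adcy9 fell (-0.76, FDR 0.00211), and Prkar2b, a regulatory subunit of protein kinase A (0.90, FDR 0.00852), and the receptor kinase Grk3 (0.74, FDR 0.00522) rose against Ctrl. Against LS, Adcy9 passed (-0.80, FDR 0.00513), while Prkar2b (0.59, FDR 0.116) and Grk3 (0.35, FDR 0.226) did not.

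Markers of other cells were read beside these results. Of the 8 cardiomyocyte markers, Myh6 fell against Ctrl (-0.33, FDR 0.0225) and against LS (-0.46, FDR 0.0107), and the other 7 did not pass. The summed level of all 8 in the first run was 50232 to 59985 CPM in AL mice and 58886 to 68633 CPM in the controls. Of this, Myh6 supplied 19323 ± 3729 CPM in AL mice (SD, n = 7) and 26748 ± 2024 CPM in the controls (SD, n = 8). In the second run the sum of the 8 markers was 82202 CPM in AL8 and 67655 CPM in AL9, against 76978 to 83737 CPM in Ctrl mice. With the mean of these markers as a covariate, Adra1a (-1.05, FDR 0.000223), Scn4b (-1.35, FDR 0.00212), Kcnd2 (-0.66, FDR 0.00234), Kcnj12 (-0.58, FDR 0.004), Scn4a (-0.77, FDR 0.0193), Atp2a2 (-0.37, FDR 0.0022) and Pln (-0.37, FDR 0.0121) still passed the FDR against Ctrl. Against LS the same covariate left 5 genes past the FDR (Adra1a, Atp2a2, Cacna2d1, Kcnd2 and Kcnj12). Of 6 atrial markers, 4 rose against Ctrl (Nppa, Myl7, Myl4 and Dkk3), with Nppa, a peptide hormone that stressed ventricles also make, supplying most of their sum of 156 to 997 CPM in AL and 17.3 to 148 CPM in Ctrl mice. In LS mice the sum was 101 to 411 CPM, which overlapped that of AL mice. Against LS 2 atrial markers rose (Myl4 and Dkk3), and Nppa did not pass (1.14, FDR 0.191). Myl7, the atrial light chain, was at most 1.89 CPM in any AL mouse, and Bmp10 at most 0.206 CPM. Of 6 conduction system markers, 0 passed in either comparison. The 4 endothelial and 4 fibroblast markers gave 0 calls in either comparison. Of the 7 smooth muscle and pericyte markers, Acta2 rose and Abcc9 fell against Ctrl, and of the 4 macrophage markers, Lyz2 rose. Against LS, Abcc9 alone of these 7 passed (-0.73, FDR 0.00265), and 0 macrophage markers did. Of the 5 Schwann cell and nerve markers, 3 were tested, none of these passed in either comparison, and the noradrenaline-synthesis gene Th was at or near 0. The 6 liver markers all fell against Ctrl, with sums of 0.659 to 30.4 CPM in AL mice and 0.154 to 267 CPM in Ctrl mice, and their part in results that were lost without the 5 mice of highest Alb was not tested.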

How the data were processed

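RNA from the apex of 20 mouse hearts was sequenced in 2 runs. The authors aligned reads with STAR and made estimated counts per gene with Salmon on GRCm38, and deposited 1 table of 25308 genes. Of its values, 14.2% were not whole numbers and were rounded here. All columns of per-mouse values were used, and 0 were left unused. Groups came from the labels. Genes were filtered with filterByExpr at a minimum count of 10, scaled by TMM and tested with edgeR 4.0.16 (R 4.3.3) by the quasi-likelihood test, fitting group plus run, on 14477 genes. p-values were adjusted by Benjamini-Hochberg over all genes tested, and a gene was called where the FDR was below 0.05 and the log2FC at least 0.58 in size (1 against the merged controls). The group by run difference was fitted on 13835 genes. CPM are TMM-scaled. Positions and exon lengths came from GENCODE M21 and promoters from RefSeq. The test was checked on simulated data. DESeq2 1.42.0, ComBat-seq (sva 3.50.0), other scaling and filters, covariates and the leaving out of single mice were alternatives. The study adjusted for the run with ComBat, and here the run was a model term instead.

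The 42 genes and the further lists were chosen with earlier results of these data known. All listed genes were reported by values or counts. From each further list at most 3 genes were named, those with the largest absolute log2FC against Ctrl among genes past the FDR with a mean of at least 1 CPM. Some genes that this rule would name are not reported here.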

Additional observations from a re-analysis of the deposited data

Results flagged for a closer look

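In 5 of 123 group and gene combinations, 1 mouse lay apart from its group by the gap between it and the next mouse (Dixon's criterion at 95%). Over all 3 groups this rate was below the 1 in 20 that chance gives. All 5 were AL mice, so that over the 41 genes in AL mice alone the rate was above 1 in 20. Gaps were taken within a group over both runs. Trdn was 194 CPM in AL9, the lowest value, with 299 CPM next. Kcnip2 was 69.0 CPM in AL9, the lowest value, with 116 CPM next. Hcn4 was 17.2 CPM in AL9, the highest value, with 8.06 CPM next. Hcn2 was 12.6 CPM in AL8, the highest value, with 8.83 CPM next. Gja1 was 447 CPM in AL3, the highest value, with 327 CPM next. AL8 and AL9 were the 2 AL mice of the second run, which had lower depth, and the part of the run in these values was not tested.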

How the results depend on the processing

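Of 1440 values for genes that passed (45 gene results under 32 settings), 1264 stayed past the FDR, 176 did not, and 0 changed direction. Adra1a passed in every setting in all 3 AL comparisons. Scn4b did so against Ctrl, Kcnd2 against LS, and Atp2a2, Kcnd2 and Kcnj12 against the merged controls. Calls with the log2FC threshold against Ctrl were 3 with Xist as a covariate and 3 to 6 when single mice were left out. Against LS they were 7 with liver markers as a covariate, 2 without the 5 mice of highest Alb and 3 to 4 when single mice were left out. Against the merged controls they were 1 in the first run alone, 1 with Xist as a covariate, 5 at an absolute log2FC of at least 0.58 and 1 to 2 when single mice were left out. Genes past the FDR at any log2FC numbered 5, 3 and 7 on ComBat-seq counts against Ctrl, LS and the merged controls, 5, 4 and 11 without the 5 mice of highest Alb, and 5 against LS with cardiomyocyte markers as a covariate. They ranged from 11 to 15, 8 to 15 and 15 to 22 when single mice were left out, with 8 against LS without LS2 and without LS3. Differences between runs numbered 2 with DESeq2 and 0 to 6 when single mice were left out, and LS against Ctrl gave 0 to 0. The liver, Alb and cardiomyocyte settings were chosen after seeing the data, and the cause was not tested.

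Mouse numbers did not pair the groups: 4 of 15 same-numbered pairs had deviations correlated above 0.1 (range -0.228 to 0.293), and 3 of 18 mice correlated best with their own number. With a replicate block, merged calls numbered 1, and Scn4a against Ctrl was -0.82 (FDR 0.073). In the second run 3 counts were worth up to 0.356 CPM, against up to 0.0748 CPM in the first.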
